A study of Homo sapiens with 4 samples.

Results

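HT29 is an established colon adenocarcinoma cell line, and the results below compare its derivative resistant to PLX4720, a kinase inhibitor, with the HT29 parent it came from. The pair was taken by the array titles and makes up 2 of the 4 arrays of the series, 1 parental HT29 and 1 resistant HT29, labelled HT29RC. The other 2 arrays are the parent and the resistant derivative of Colo205, a second colon cancer line, and are used only for comparison. Both HT29 cultures were grown in medium with 10% serum, and the resistant cells were kept in medium without PLX4720 for 24 h before total RNA was taken, so they were not under the inhibitor at harvest. The labels do not say whether the derivative is a single clone or a mixed population, and they give no genotype. There were no replicates within a line and status, so every difference below is that between 2 arrays, with no test and no replicate error.

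The lining of the colon is renewed from stem cells at the base of crypts, which depend on WNT signalling, and its cells become absorptive enterocytes or secretory cells as they move up. Enterocytes carry microvilli, membrane mucins and adhesion proteins of their own kind. Squamous epithelia such as skin instead build a cornified envelope from small proline-rich proteins, plakin linkers and S100 proteins. The kinase ERK, which lies at the end of the growth factor pathway that runs from receptor tyrosine kinases, drives transcription factors of the AP-1 and ETS families and a set of feedback phosphatases.

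Expression is given as the log2 value of the deposited table, and a difference is the resistant minus the parental value, so that 1 is 2-fold and 2 is 4-fold. The brightest probe set on average stands for each gene, and 13651 genes whose highest reading reached 5.73, the median of all values, were kept. Readings below that value were not shown to lie above background. Probe sets of one gene differed from each other with an SD of 0.30, which measures scatter between probes and not between cultures. Of 9 colon epithelium markers 8 lay above that value in the parent and 9 in the derivative, the exception being CDX2, at 5.17 in the parent. KRT18 read 14.71 and 14.82, EPCAM 13.93 and 13.75 and VIL1 10.42 and 10.46. The 9 markers had a median difference of 0.42 with 8 higher, of which CDX2, GPA33 and KRT19 were 2-fold or more higher, by 1.35, 1.28 and 1.11. Of 7 fibroblast markers 4 lay above the filter value in each array, but not the same 4. LUM, lumican, went from 5.14 to 6.80 and PDGFRB from 5.79 to 5.64, while COL1A1, the brightest, read 7.45 and 7.35. The pan-leukocyte gene PTPRC read 3.91 and 3.70. Spiked-in poly-A controls (24 probe sets) differed by a median of -0.43 and hybridisation controls (18 probe sets) by -0.08. The difference between 3' and 5' probe sets of ACTB was 2.77 in the parent and 2.40 in the derivative. The 7 measured mitochondrially encoded transcripts had a median difference of 0.54. The part of these controls in the results was not tested.

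Of the 13651 genes, 467 (3.42%) were 2-fold or more higher in the resistant array and 235 (1.72%) were 2-fold or more lower. In both directions most of these genes were readable on both arrays. Of the higher genes 377 had both HT29 readings at or above the filter value, and for 84 the parent lay below it and the derivative above it. Of the lower genes 190 had both readings at or above it, and 41 passed from above to below. Given below by their difference alone, AHNAK2, CDA, KRT23, KRT40, NRP2, PHLDB2, S100A3, SLC22A4 and SNX10 had a parental reading below the filter value. ADAMTS6, KREMEN1, PDK4, PER3, SERPINB9, SLC4A4 and ST6GALNAC1 had a resistant reading below it. Such differences have no exact size. A gene kept through its high array alone had to differ, so counts and medians over measured genes are descriptions. List counts below are to be read beside the 3.42% higher and 1.72% lower over all genes. Among the 234 higher genes with several probe sets past the filter, every probe set pointed upward in 212, and among 116 such lower genes every one pointed downward in 94. By the median over a gene's probe sets, 34 of the 200 genes named here at 2-fold or more fell under 2-fold. They were ACSL4, ANXA1, CAPN2, CAV2, CDCA7, CYTH3, DNAJC12, DSG2, DUSP7, EGFR, EPHB3, ETV5, FGFR2, GALNT5, HBEGF, HMGCS1, IFIT3, IL15, IL1RN, ITGB4, KLF4, KREMEN1, KRT19, MUC5AC, NRP1, NRP2, PKP3, PLXND1, RHOF, SAMD9, SERPINB8, SERPINB9, SREBF1 and TRIM29. In 18 of these, and in 7 whose median stayed past 2-fold, the median differed from the brightest probe set by more than 1.5 times, and that median or the range of the probe sets stands beside the gene. Fewer cells expressing a gene and less RNA of it per cell cannot be told apart in bulk RNA.

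**Figure D1:**
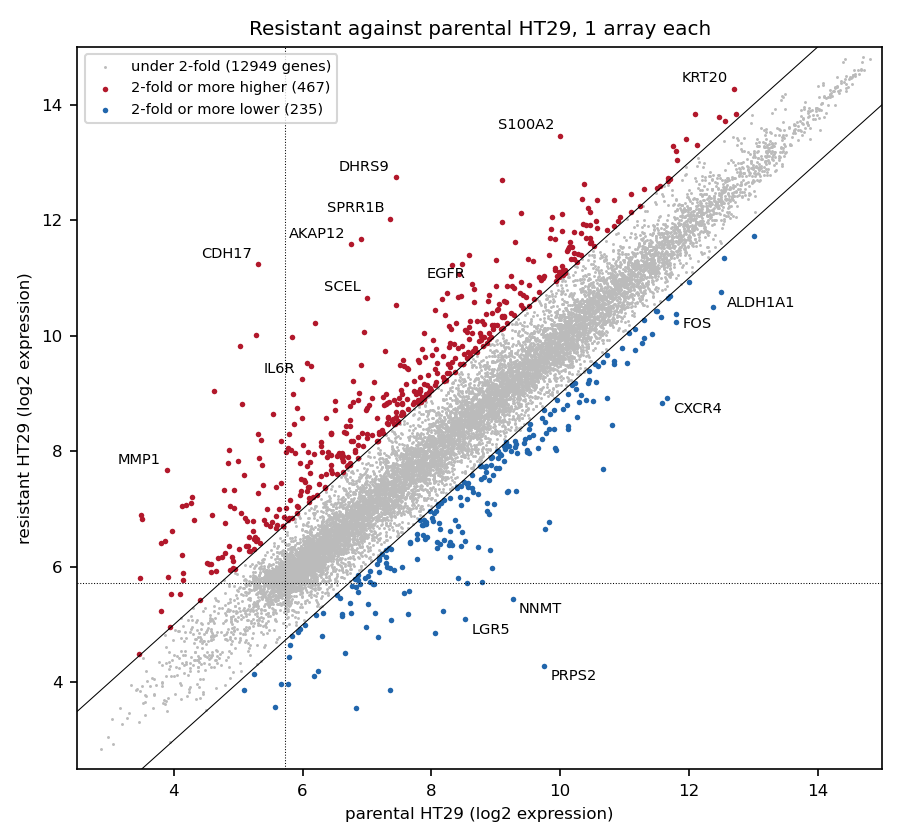
Log2 expression of 13651 genes in resistant HT29 (y axis) against parental HT29 (x axis), 1 array each; solid lines mark 2-fold and dotted lines the filter value of 5.73. The 467 red points lie 2-fold or more above the diagonal and the 235 blue points 2-fold or more below it.

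Genes of squamous differentiation, listed together with desmosome genes, made up one of the larger groups that were higher. Of 71 genes listed, 39 were measured, 15 of them 2-fold or more higher and 0 lower. Their median difference was 0.61 against -0.01 over all genes. The 19 measured envelope and crosslinking genes alone had 7 at 2-fold or more higher and a median of 0.19, against 0.23 in Colo205. Another 11 of them lay below the filter. SPRR1B, a cornified envelope precursor, read 7.36 in parental and 12.03 in resistant cells. Its relatives SPRR3 and SPRR1A went from 5.85 to 8.99 and from 6.95 to 10.07, and the median over both SPRR3 probe sets was 1.88. SCEL, sciellin, which is built into the envelope, read 7.0 and 10.66, with its 3 probe sets between 3.20 and 3.66. The 3 SPRR genes are similar in sequence and their probe sets can read more than 1 of them. Among linkers and inhibitors, PPL, periplakin, was higher by 1.69, ANXA1, an annexin crosslinked into the envelope, by 1.18, and PI3, the elastase inhibitor elafin, by 1.87. TGM1, the transglutaminase that crosslinks the envelope in skin, read 6.16 and 5.81, and the envelope genes IVL and FLG lay below the filter on all 4 arrays.

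The desmosome and squamous surface genes were mostly higher, with 17 of 20 above 0, 8 of them 2-fold or more, and a median of 0.78. With the 11 members below the filter included, the median was 0.37. IL1RN, the secreted and intracellular antagonist of interleukin-1, read 8.41 and 10.68, but the median over its 3 probe sets was 0.64. EMP1, an epithelial membrane protein, read 10.37 and 12.63, with a median of 1.18 over 5 probe sets. SERPINB5, maspin, was higher by 1.41, TRIM29 by 1.17, and FGFBP1, which releases fibroblast growth factors from matrix, by 1.05. The desmosome genes stood close together, with DSC2 at 1.15, PKP3 at 1.02 and DSG2 at 1.01. They are also in the list of epithelial junction genes, and already read 10.47, 10.04 and 11.67 in the parent. Of the keratinocyte markers, KRT5 read 6.13 and 6.33, while KRT14 read 4.20 and 4.18 and DSG3 5.18 and 5.15, below the filter on both HT29 arrays. S100A2, a calcium-binding protein of squamous epithelium, read 10.00 and 13.46, and S100A3 and S100A11 were higher by 1.30 and 1.05, 3 of 12 measured S100 genes. In Colo205, 4 of the 19 measured envelope genes were also 2-fold or more higher, SPRR1B by 7.29, SPRR3 by 5.14, SPRR1A by 4.68 and ANXA1 by 1.76. S100A2, S100A11 and SERPINB5 were higher there by 2.18, 1.04 and 1.30, and SCEL differed by 0.25, IL1RN by -0.13 and EMP1 by 0.81.

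Promoters of several of these genes hold the AP-1 motif TGANTCA, which reads the same on both strands, and stretches around it are shown because they are shared by squamous genes and by the protease genes below. The sequences are RefSeq promoters of build GRCh38.p14, 5′ to 3′ on the strand of the gene, taken from the 250 bases before the start, with motif matches in capitals.
SPRR1B: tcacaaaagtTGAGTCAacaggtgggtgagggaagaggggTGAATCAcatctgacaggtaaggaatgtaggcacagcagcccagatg
SPRR1A: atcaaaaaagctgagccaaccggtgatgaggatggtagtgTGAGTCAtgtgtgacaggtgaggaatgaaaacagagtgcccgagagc
SPRR3: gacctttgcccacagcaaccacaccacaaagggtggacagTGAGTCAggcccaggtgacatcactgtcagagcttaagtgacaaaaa
SCEL: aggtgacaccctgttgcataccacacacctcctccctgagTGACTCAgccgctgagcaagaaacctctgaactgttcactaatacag
S100A2: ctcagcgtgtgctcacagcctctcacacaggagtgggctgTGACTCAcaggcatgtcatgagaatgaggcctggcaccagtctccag
IL1RN: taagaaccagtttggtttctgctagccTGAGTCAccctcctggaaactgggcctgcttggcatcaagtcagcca
PLAUR: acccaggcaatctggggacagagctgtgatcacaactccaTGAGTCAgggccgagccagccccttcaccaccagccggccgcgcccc
MMP7: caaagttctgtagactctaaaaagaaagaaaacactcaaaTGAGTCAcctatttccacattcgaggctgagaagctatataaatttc
CAPN8: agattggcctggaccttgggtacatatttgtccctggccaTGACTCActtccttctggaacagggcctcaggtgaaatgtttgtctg
The stretches lie, in the same order, at chr1:153031052-153031138 (+), chr1:152983933-152984019 (+), chr1:153001539-153001625 (+), chr13:77535617-77535703 (+), chr1:153565850-153565936 (-), chr2:113117721-113117794 (+), chr19:43670309-43670395 (-), chr11:102530768-102530854 (-) and chr1:223665749-223665835 (-). A promoter was found for 10953 of the kept genes, and the first one listed for each was searched. The motif was present in 466 of them (4.25%), in 38 of 368 higher genes (10.3%) and in 6 of 182 lower genes (3.30%). Among genes 4-fold or more higher it was present in 13 of 74 (17.6%). With any listed promoter of a gene counted, the shares were 6.39% of kept genes, 15.2% of higher and 8.24% of lower genes. Of 11 squamous genes 2-fold or more higher with a promoter, 7 held it. A match is a description of these letters and does not show that a factor binds there.

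Genes of the enterocyte surface were higher, while absorptive enzymes were mostly not measured. Of 22 measured genes for adhesion, microvilli and structure, 6 were 2-fold or more higher and 0 lower, with a median of 0.37. CDH17, the intestinal cadherin, read 5.30 and 11.24 in the HT29 pair, against 10.12 and 11.49 in the Colo205 pair. KRT20, a keratin of mature enterocytes, read 12.69 and 14.28, and in Colo205 it read 4.79 and 3.95, below the filter in both. EZR, which ties microvillar membrane to actin, was higher by 1.35, the surface antigen GPA33 by 1.28 (2.03 in Colo205) and the membrane mucin MUC12 by 1.28. MUC17, another membrane mucin, read 5.03 and 9.83, but its other probe set past the filter differed by 0.07. Only 5 of 14 apical enzyme genes on the array were measured, of which DPP4, a brush border peptidase, read 9.46 and 10.67, and sucrase-isomaltase SI and the aminopeptidase ANPEP lay below the filter. Lipid and solute handling genes were not shifted the same way, with 1 of 16 2-fold or more higher, 1 lower, 10 below 0 and a median of -0.08. Over all 43 measured enterocyte genes the median was 0.06. FABP1, the fatty acid carrier of enterocytes, read 4.6 and 6.89 in HT29 and 8.95 and 6.78 in Colo205. PDZK1, a scaffold for apical transporters, was lower at -1.38, and at -2.84 in Colo205.

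Among intestinal regulators the differences went both ways, with 2 of 25 higher and 2 lower. CDX2, the homeobox factor of intestinal identity, read 5.17 and 6.52, and KLF4, a factor of post-mitotic epithelium, read 9.95 and 11.04. The nuclear receptor gene NR2F1 read 8.91 and 6.29, with a difference of -2.50 in Colo205, and ID2, an inhibitor of basic helix-loop-helix factors, was lower at -1.51. Of 24 secretory lineage genes, 3 were higher and 2 lower. REG4, a secreted lectin, was higher by 2.39 and by 3.15 in Colo205, the trefoil peptide TFF1 by 1.82 and AGR3, a protein disulphide isomerase relative, by 1.46. ST6GALNAC1, which sialylates mucin, was at -2.06, and the gel-forming mucin MUC5AC was at -1.36, with its 4 probe sets between -1.51 and 0.05.

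Crypt and stem cell genes, listed with WNT targets, were mostly lower, with 14 of 20 below 0 and a median of -0.30. By 2-fold or more 4 were lower (20%, against 1.72% of all genes) and 0 higher. The median was -0.64 where the highest HT29 reading had to reach the filter. PROM1, a surface protein of stem cells, read 11.80 and 10.23. EPHB3, a crypt position receptor, read 8.56 and 7.45 with a median of -0.60 over both probe sets, and CDCA7 11.49 and 10.43 with a median of -0.98. KREMEN1, a receptor for WNT inhibitors, differed by -1.38, and by -0.47 as the median over 3 probe sets. Of these 4 genes only PROM1, read by 1 probe set, stayed past 2-fold by such medians. Among 25 WNT receptors and secreted regulators 1 (4%, beside 1.72% of all genes) was lower by 2-fold or more and 0 higher. This was LGR5, the R-spondin receptor of crypt base stem cells. It read 8.53 and 5.10, the latter below the filter, and its second probe set differed by 0.12. The list had a median of -0.11, and a single gene does not describe it. Other WNT targets moved less, with ASCL2 at -0.97, SOX9 at -0.29 and AXIN2, a feedback target, at 0.34. The 20 crypt and stem cell genes had a median of -0.31 in Colo205, with PROM1 at -5.09, and LGR5 was at 0.12 there.

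**Figure D2:**
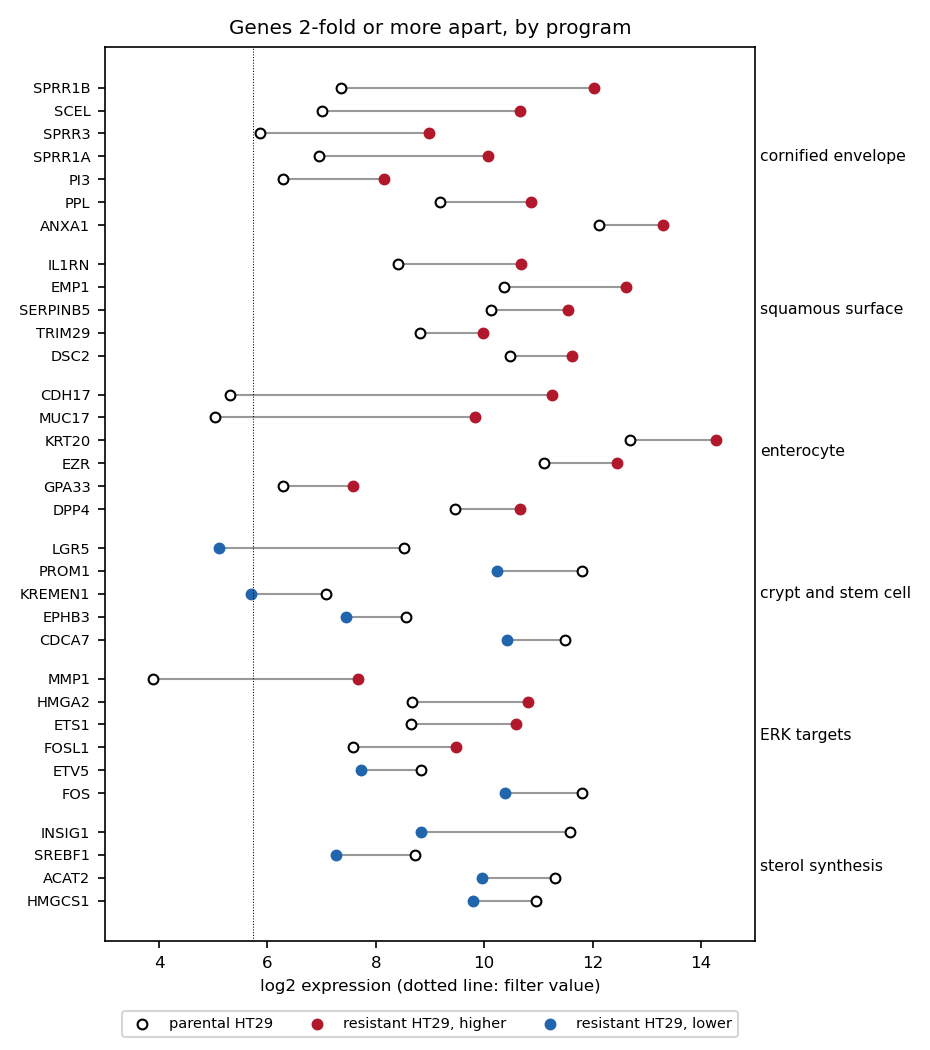
Log2 expression of genes 2-fold or more apart in HT29, grouped by program, with open circles for the parent and filled circles for the resistant derivative (1 array each; the dotted line is the filter value). Squamous and enterocyte genes shown lie to the right of the parent, crypt and sterol genes to the left, and ERK targets on both sides. Not every such gene is drawn, and the enterocyte gene PDZK1, lower at -1.38, is left out.

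Receptors and ligands upstream of ERK showed a few large differences in lists that were otherwise centred near 0. EGFR, the epidermal growth factor receptor, read 8.63 and 10.89, with 8 probe sets between 0.00 and 2.39 and their median at 0.72. LRIG1, a transmembrane protein that lowers the level of that receptor, read 8.98 and 7.08. In Colo205 EGFR was higher by 1.09 and LRIG1 differed by -0.22. ERBB2 and ERBB3, the partner receptors, were at 0.13 and -0.63. Among ligands HBEGF was higher by 1.10, but its 3 probe sets ran from -0.27 to 1.10, and TGFA and EREG were at 0.84 and 0.45. The sheddase gene ADAM19 was higher by 1.11. In the other receptor families, EPHA2 was higher by 1.35 and FGFR2 was at -1.19, with 5 probe sets between -1.51 and -0.03 and their median at -0.03. PDGFA, a platelet-derived growth factor chain, read 7.29 and 9.00, whereas FGF9 read 8.94 and 5.99 and FGF19 6.98 and 4.96. EFNB2, an ephrin ligand, was higher by 1.29.

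Of 40 measured transcription factor and target genes of ERK, 10 were 2-fold or more higher and 2 lower, with a median of 0.25. The 10 include MMP1, UPP1, NT5E, EPHA2, PLAUR and LIF, which are described with other groups, so the lists share genes. FOSL1, an AP-1 subunit, read 7.58 and 9.48, ETS1 8.66 and 10.59, HMGA2, a chromatin protein, 8.66 and 10.82 (median over 6 probe sets 1.20), and ELK3, an ETS factor, 8.06 and 9.43. FOS, another AP-1 subunit, read 11.81 and 10.38, and ETV5 and ETV4, ETS factors, were at -1.11 and -0.74. The immediate early gene EGR1 was at -0.66. Of 17 feedback genes and phosphatases 3 were 2-fold or more higher and 0 lower, with 12 above 0 and a median of 0.06. DUSP5, a nuclear ERK phosphatase, was higher by 1.43 and the phosphatase PTPRE by 2.11, DUSP7 was at 1.18 with its second probe set at -0.13, and DUSP6, DUSP4, SPRY2 and SPRY4 were at -0.19, -0.21, 0.08 and 0.45. In Colo205 the target list had 1 gene 2-fold or more higher and 1 lower, and a median of 0.07.

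Several scaffold and small GTPase genes were far higher. AKAP12, which anchors protein kinase A, read 6.76 and 11.58, but its probe sets ran from 0.18 to 5.36. GEM, a small GTPase, read 5.83 and 9.99, and PRKACB, a catalytic subunit of protein kinase A, read 8.59 and 11.40, with 3 probe sets between 2.39 and 2.81. In Colo205 AKAP12 was higher by 3.40 and PRKACB differed by -0.21. RHOF was higher by 1.92, with a median of 0.80 over 4 probe sets, and the kinase MAP4K4 by 1.49. IQGAP2, a scaffold of the actin cytoskeleton, read 9.92 and 8.06 in HT29 and 5.14 and 6.91 in Colo205. Of 25 phosphoinositide kinase and AKT genes, 1 was 2-fold or more higher, SGK1 by 1.29, and 2 were lower, the mTOR inhibitors DEPTOR at -1.65 and DDIT4 at -1.20.

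Protease, protease inhibitor and matrix genes held a second large set of differences. Of 56 measured genes in the protease list, which includes the receptor gene PLAUR, 12 were 2-fold or more higher and 1 lower. The median was 0.11, so that a minority of the list moved. In Colo205 the list had a median of 0.13, with 4 genes 2-fold or more higher and 3 lower. The collagenase MMP1 read 3.89 in the parent, below the filter, and 7.67 in the derivative. MMP7, matrilysin, was higher by 1.43 from a reading of 10.56, and PLAUR, the receptor that holds urokinase at the surface, read 8.77 and 9.93. The calpains CAPN8 and CAPN2 were higher by 2.15 and 1.45, and in Colo205 by 1.09 and 1.05, although the median over both CAPN2 probe sets was 0.96 in HT29. Also higher were the cathepsins CTSL and CTSS, by 1.46 and 1.36, and the serine protease PRSS23 by 1.80. PRSS3 and PRSS2 are nearly identical trypsinogens that their probe sets may not separate, and they were at 1.77 and 1.46, with PRSS2 at -1.72 in Colo205. ADAMTS6 was the lower one, at -3.50. Of 12 higher protease and inhibitor genes with a promoter, 8 held the AP-1 motif, among them PLAUR, MMP7 and CAPN8. The 8 include both PRSS2 and PRSS3, and SERPINB5, which is also counted among the squamous genes, so this count and that one are not separate.

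Among 29 measured protease inhibitor genes 5 were 2-fold or more higher and 1 lower. The 5 include SERPINB5 and PI3, already given with the squamous genes. SERPINE2, a thrombin and urokinase inhibitor, read 9.10 and 12.70, and was higher by 1.95 in Colo205. TIMP2, an inhibitor of matrix metalloproteinases, read 8.32 and 11.22 in HT29 but 9.56 and 6.33 in Colo205. SERPINB8 was higher by 1.51, with a median of 0.92 over both probe sets, while SERPINB9, an inhibitor of granzyme B, was at -1.10 with its other probe set at 0.20. Of 16 integrin genes, ITGA2, the collagen receptor chain, read 10.03 and 12.12, ITGA3 was higher by 1.24 and ITGB8 by 1.07, and ITGA1 was lower at -1.55. ITGB4, the hemidesmosome chain, was at 1.24 by its brightest probe set, but its 4 probe sets ran from -0.25 to 1.24. The 38 measured laminin, collagen and glycoprotein genes went both ways, with 20 above 0, 18 below and a median of 0.02. By 2-fold or more 7 were higher and 3 lower. LAMB3 and LAMC1, laminin chains, were higher by 2.23 and 1.25, TNC, tenascin, by 3.46 (2.91 in Colo205), and the giant scaffold AHNAK2 by 4.73. FBN2, fibrillin, read 3.49 and 6.89, with the parent below the filter. COL9A3 and SBSPON were lower at -3.10 and -3.05. Among mesenchymal genes CAV1 and CAV2, the caveolins, were higher by 1.73 and 1.16, the 3 probe sets of CAV2 running from 0.20 to 1.16, and CAV2 was higher by 1.60 in Colo205. By contrast VIM, vimentin, read 5.75 and 5.53 and CDH1, epithelial cadherin, 12.66 and 13.05.

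Interferon-stimulated effector genes were lower in HT29 as a group. Of 49 measured, 37 were lower and 12 higher, with 6 lower and 3 higher at 2-fold or more, and a median of -0.36. IFIT1, which binds viral RNA caps, read 7.02 and 5.36, IFI44 8.28 and 6.63, and CMPK2, a mitochondrial nucleotide kinase, 6.62 and 5.18. IFI27 read 11.56 and 10.32, IFIT3 8.10 and 7.05, and HERC6, a ubiquitin ligase, 6.90 and 5.71. The exceptions were OASL, a relative of the oligoadenylate synthetases, at 1.54, the guanylate-binding protein GBP3 at 1.44 and SAMD9 at 1.02. The 25 measured sensors, receptors and factors had a median of -0.01 with 0 genes past 2-fold in either direction. In Colo205 the effector median was 0.13, with IFIT1 at 2.80, IFI44 at 1.54 and IFI27 at 3.40.

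Of the 6 lower effectors 4 have an ISRE core in their first listed promoter, a pair of GAAA or TTTC blocks with 2 bases between, and their stretches are shown for that reason, read as above from GRCh38.p14 with matches in capitals.
IFIT1: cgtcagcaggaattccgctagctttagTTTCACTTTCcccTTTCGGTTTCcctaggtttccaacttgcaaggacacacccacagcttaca
IFIT3: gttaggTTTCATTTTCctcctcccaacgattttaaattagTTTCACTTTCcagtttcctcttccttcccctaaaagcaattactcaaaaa
IFI44: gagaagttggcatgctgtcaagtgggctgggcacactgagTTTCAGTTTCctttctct
IFI27: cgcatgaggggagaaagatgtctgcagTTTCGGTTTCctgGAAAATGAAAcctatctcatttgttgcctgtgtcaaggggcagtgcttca
They lie at chr10:89392480-89392569 (+), chr10:89327835-89327924 (+), chr1:78649731-78649788 (+) and chr14:94110601-94110690 (+), in the same order. The core was present in 237 of 10953 kept genes (2.16%) and in 23 of 38 effectors with a promoter. The same core is present in the promoter of SAMD9, one of the higher effectors. Whether holding it goes with the direction of a difference was not tested.

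**Figure D3:**
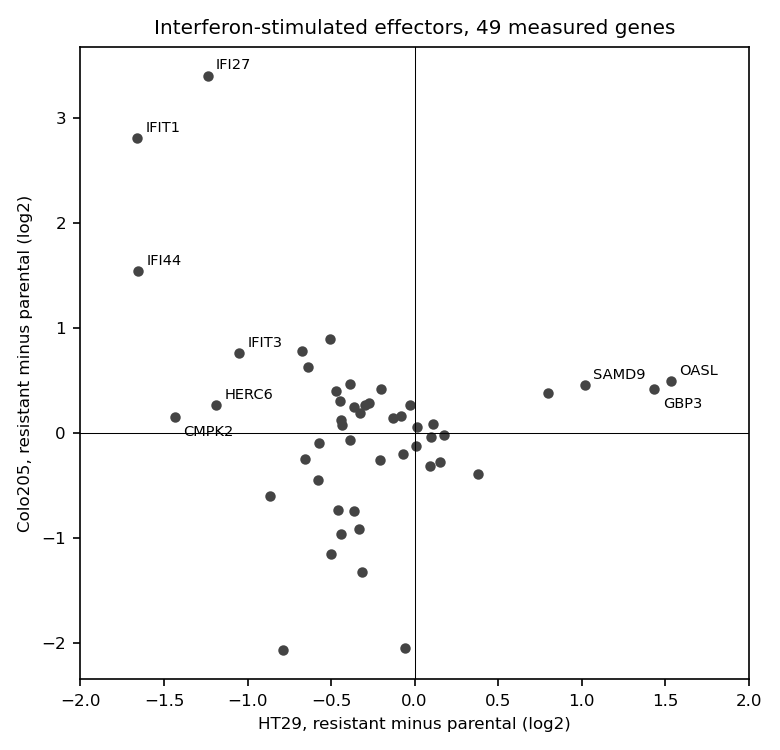
Difference of 49 interferon-stimulated effector genes in Colo205 (y axis) against HT29 (x axis), resistant minus parental, log2, 1 array a side. IFIT1, IFI44 and IFI27 lie at the upper left, lower in resistant HT29 and higher in resistant Colo205.

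Cytokine receptors and feedback genes of NF-kB were mostly higher, with 20 of 24 above 0. By 2-fold or more 4 were higher (16.7%, against 3.42% of all genes) and 0 lower. IL6R, the interleukin-6 receptor chain, read 5.98 and 9.25, and TNFAIP3, a ubiquitin editor that limits NF-kB, 6.44 and 8.31. CFLAR, which blocks the initiator caspase of death receptors, was higher by 1.26. IL22RA1, the interleukin-22 receptor chain, was higher by 1.36. The 20 measured cytokine and chemokine genes went both ways, with 11 above 0, 9 below and a median of 0.08. Among them IL18 was higher by 1.73, IL15 by 1.07 and LIF by 1.03, with IL15 at -1.82 in Colo205. The median over the receptor and feedback genes was 0.34 in HT29 and -0.04 in Colo205. The chemokine receptor gene CXCR4 was lower, at 11.66 and 8.92, with 3 probe sets between -2.73 and -2.26.

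Sterol synthesis genes were lower, with 21 of 26 below 0, 4 lower by 2-fold or more, 0 higher and a median of -0.38. INSIG1, which holds the sterol sensor in the endoplasmic reticulum, read 11.59 and 8.83. In Colo205 the same list had 23 of 26 below 0 and a median of -0.29. SREBF1, the transcription factor of lipid synthesis, read 8.73 and 7.26, with a median difference of -0.79 over both probe sets, and the early enzymes ACAT2 and HMGCS1 were at -1.34 and -1.16. In fatty acid metabolism the acyl-CoA synthetases ACSL1, ACSL4 and ACSM3 were at -1.65, -1.21 and -2.37, with ACSL4 at -0.46 by the median of 3 probe sets. GPAT3, which begins glycerolipid synthesis, was higher by 1.85. In Colo205 ACSL1, ACSM3 and GPAT3 differed by -1.38, -1.67 and 2.93. Of 32 amino acid response genes 3 were lower and 0 higher, ASNS, asparagine synthetase, at -1.02, DDIT4 at -1.20 and the cationic amino acid transporter SLC7A2 at -3.05. In Colo205 ASNS and DDIT4 were at -1.83 and -2.71. The median of that list was -0.09 in HT29 and -0.63 in Colo205. DNAJC12, a cochaperone, read 7.72 and 9.05 in HT29 and 9.85 and 5.47 in Colo205.

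Retinoid metabolism held large differences in 4 of 24 measured genes and a median of -0.01. DHRS9, a retinol dehydrogenase, read 7.45 and 12.75, ALDH1A3, which makes retinoic acid, 9.39 and 12.12, and RBP4, the retinol carrier, 7.11 and 9.20. ALDH1A1, a second retinaldehyde dehydrogenase, was lower, at 12.49 and 10.76. In Colo205 the differences of DHRS9, ALDH1A3 and ALDH1A1 were 0.45, -0.52 and 0.14. Among other enzymes, MAOB, monoamine oxidase B, was higher by 2.48, the sulphotransferase SULT2B1 by 2.16 and the peroxidase GPX3 by 2.07. In Colo205 MAOB and GPX3 were higher by 4.03 and 1.48. HEPH, the ferroxidase of enterocyte iron export, read 6.90 and 11.68, and SLC30A4, a zinc transporter, 5.31 and 7.27.

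In nucleotide metabolism, PRPS2, which makes the sugar phosphate precursor, read 9.75 and 4.29, while the salvage enzymes UPP1, CDA and NT5E were higher by 2.46, 1.74 and 1.57. In Colo205 PRPS2 differed by 0.08 and CDA by -1.26. NNMT, which methylates nicotinamide, read 9.26 and 5.45. IDH1, the cytosolic isocitrate dehydrogenase, read 12.38 and 10.50, with both probe sets between -1.87 and -1.67. PDK4, which inhibits pyruvate dehydrogenase, was at -2.07 and at -1.14 in Colo205, and of the hypoxia genes NDRG1, P4HA2 and EPAS1 were higher by 1.80, 1.44 and 1.36 and BNIP3L was lower at -1.72.

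Of 23 measured targets of YAP and TEAD, transcription regulators of the Hippo pathway, 4 were higher and 1 lower. Their median was 0.38, against -0.20 in Colo205, and was 0.25 where both HT29 readings had to reach the filter. PHLDB2, which anchors microtubules at the cell edge, was higher by 3.75, F3, tissue factor, by 1.54 and MYOF by 1.51, but the canonical targets CCN1 and CCN2 were at 0.25 and -0.16. NT5E, given above, was also among the 4 higher targets. EDN1, endothelin, was at -1.02 with 3 probe sets from -2.0 to 0.32. In the TGF-beta list LTBP1, which stores the latent ligand in matrix, read 6.78 and 9.22, PMEPA1, a feedback inhibitor, 9.86 and 11.85 (1.41 higher in Colo205), and SMAD3 was higher by 1.05. CDKN1A, a cyclin-dependent kinase inhibitor, was higher by 1.74 and its relative CDKN1B was lower at -1.28 and at -1.47 in Colo205. The death receptor gene FAS was higher by 1.43. The circadian gene PER3 was lower, at -2.30 with a median of -1.30 over both probe sets, and higher by 1.02 in Colo205.

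Some gene families had a few members far apart and the rest near 0. Of 22 measured keratins 5 were 2-fold or more higher and 0 lower, KRT40 by 2.94, KRT20 by 1.58, KRT23 by 1.47, KRT80 by 1.39 and KRT19 by 1.11. CEACAM5 and CEACAM6, carcinoembryonic adhesion proteins, were 2 of 7 measured members and were higher by 2.87 and 1.32, and in Colo205 by 3.16 and 4.33, with CEACAM5 at 1.48 in HT29 by the median of both probe sets. Of 27 sorting nexins 4 were higher, SNX10 by 4.41, SNX24 by 1.84, SNX29 by 1.77 and SNX9 by 1.56, and their median was -0.01. HOXB8, HOXB9 and HOXC4 were the 3 of 19 homeobox genes that were lower, at -1.5, -1.53 and -1.11, and the first 2 were at -1.62 and -1.46 in Colo205. The neuropilins NRP2 and NRP1 were higher by 2.89 and 1.04, and PLXND1, a plexin, was lower at -1.73. By the median over their probe sets NRP2 was at 0.46 and PLXND1 at -0.84. Among 238 solute carriers 10 were higher (4.20%) and 5 lower (2.10%), near the 3.42% and 1.72% of all genes, with a median of 0.02. The largest differences were those of the carnitine and ergothioneine transporter SLC22A4 at 2.92, SLC7A2 at -3.05 and the bicarbonate transporter SLC4A4 at -2.83. Glycosyltransferases GALNT5 and GALNT6 were higher by 2.22 and 1.69, with GALNT5 at 0.84 by the median of 5 probe sets, and ST6GAL1 was lower at -1.86 and at -2.43 in Colo205.

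Other lists held no gene past 2-fold. Over all genes 3.42% were higher and 1.72% lower by that measure, and at those shares lists of this size would hold few such genes. Of 46 cyclin, kinase and replication genes 0 were past 2-fold in either direction, with a median of -0.05, as were 0 of 32 tight junction and polarity genes, 0 of 22 antigen presentation genes, 0 of 17 DNA methylation genes, 0 of 34 histone genes and 0 of 20 YAP regulators.

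**Figure D4:**
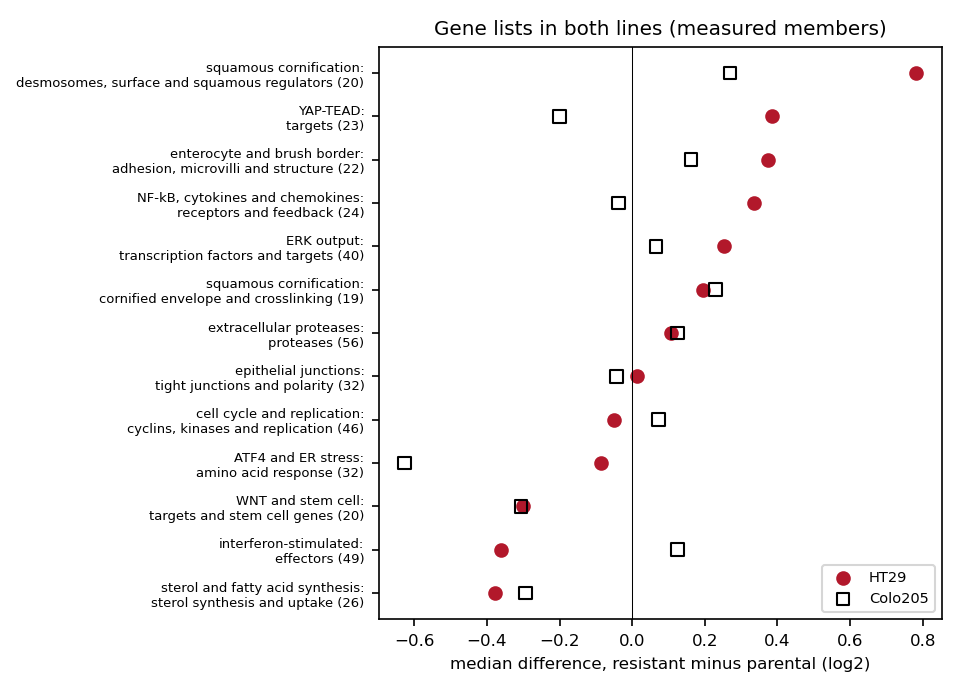
Median difference of gene lists, resistant minus parental (x axis, log2), in HT29 (filled circles) and Colo205 (open squares), with the number of measured genes in brackets. The list of desmosome and squamous surface genes lies highest in HT29 at 0.78, and interferon effectors lie at -0.36 in HT29 and 0.13 in Colo205.

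A block of neighbouring genes on chromosome 7 differed together in HT29. In runs of 50 genes in RefSeq order, the first 4 runs had medians of 0.34, 0.69, 0.41 and 0.76, the fifth 0.09, and the next 8 lay between -0.45 and -0.05. The 261 runs on other chromosomes lay between -0.33 and 0.19. Of the first 200 genes, a length chosen after these medians were seen, 172 were higher, 52 by 2-fold or more (26%), and 0 were lower by 2-fold or more, against 3.09% of the other genes placed on a chromosome. In Colo205 the same 200 genes had a median of 0.03, with 2 higher and 3 lower by 2-fold or more. GRB10, an adaptor of receptor kinases, read 8.24 and 10.74, STK17A, a kinase, 9.30 and 11.62, and IGFBP1, an insulin-like growth factor binding protein, 5.38 and 7.77. UPP1, PDGFA, SNX10, ITGB8 and AGR3 above are in the same 200, as are MACC1, a regulator of growth factor receptor expression, at 1.58, COBL, an actin nucleator, at 1.84, OSBPL3 at 1.91 and CYTH3 at 1.86, whose 2 probe sets differed by 0.14 and 1.86. EGFR is the 202nd gene, and GUSB, a lysosomal glucuronidase, and ASL, argininosuccinate lyase, at 1.68 and 2.18, stand at positions 219 and 220. From position 251 on, 388 genes had a median of -0.21 with 258 lower. The 52 genes are 11.1% of all those 2-fold or more higher. One of them, the pseudogene PRSS3P2, is nearly identical to PRSS2 and PRSS3 and its reading and place are uncertain.

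**Figure D5:**
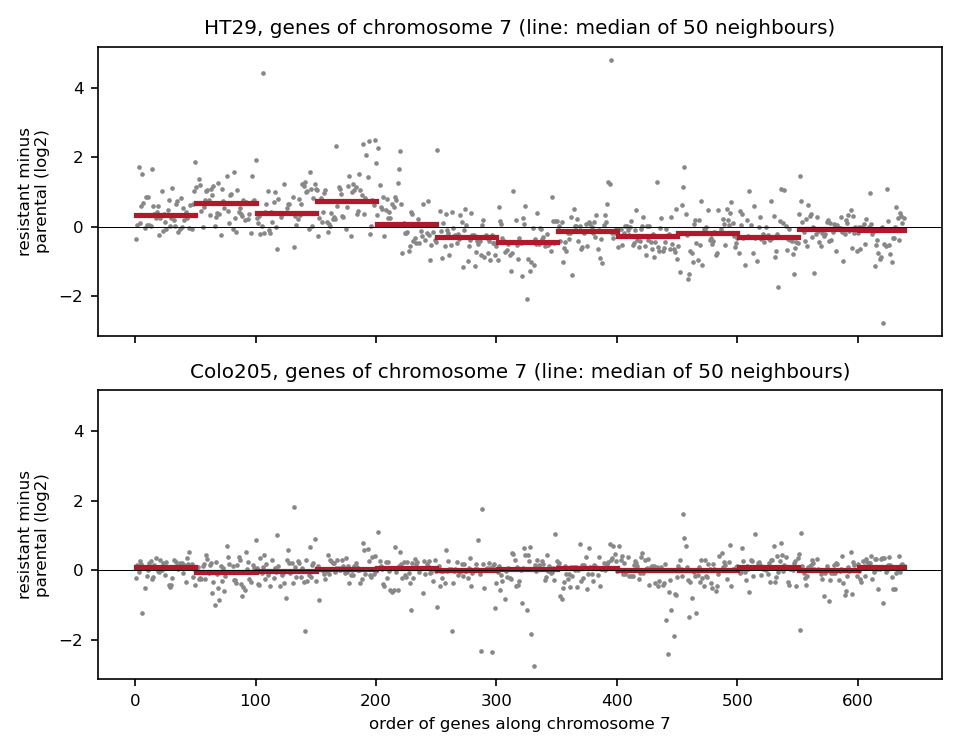
Difference of each of 638 genes of chromosome 7 (y axis, resistant minus parental, log2) in their order along the chromosome (x axis), for HT29 (top) and Colo205 (bottom); red lines are medians of 50 neighbouring genes. The first 4 lines of HT29 lie between 0.34 and 0.76, and those of Colo205 lie near 0.

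Most of the differences in HT29 were not seen at 2-fold in Colo205, where 124 genes (0.908%) were 2-fold or more higher and 343 (2.51%) lower. Of the 467 genes higher in HT29, 40 were 2-fold or more higher and 27 lower in Colo205, and 400 (85.7%) were under 2-fold there. Of the 235 lower genes, 32 were also lower and 5 higher, and 198 (84.3%) were under 2-fold. No test compares the lines with 1 array a group. For 89 of the 467 higher genes the Colo205 parent already read at or above the resistant HT29 level, and for 62 both Colo205 arrays lay below the filter.

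Further genes among the 40 largest in each direction by the naming rule had differences that Colo205 did not share at 2-fold. CD99, an adhesion glycoprotein, read 6.13 and 9.47, with both probe sets between 2.40 and 3.34, and TUBA1A, an alpha tubulin, 5.91 and 8.75. C4BPB, a chain of a complement inhibitor, read 8.47 and 11.24, ZNF185, an actin-binding protein, 7.45 and 10.53, and IGFL2, an insulin growth factor-like peptide, 6.19 and 10.23. EPHX4 read 3.50 and 6.84 and SST, somatostatin, 4.83 and 7.79, each with the parent below the filter. Among lower genes, ADRA2A, an adrenergic receptor, read 8.42 and 5.81, UTRN, utrophin, 8.52 and 6.44, and the palmitoyltransferase ZDHHC2 6.83 and 3.56. DPYSL2, a tubulin-binding protein of axon guidance, read 10.66 and 7.69, and was 2-fold or more lower in Colo205 too, at -1.28.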

How the data were processed

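Total RNA of each culture was hybridised to an Affymetrix array as biotin-labelled cRNA, per the labels' protocols. For 54675 probe sets the authors deposited 1 log2 value per array, already normalised; that the scale is log2 follows from their range, and MAS5 and RMA are listed in the submitters' processing notes with no role or version.

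By the platform annotation 41091 probe sets named 1 gene, and 41037 of these had an identifier in the RefSeq table of GRCh38.p14, which changed 0 symbols. Each gene took its brightest probe set by the mean of all 4 arrays, and genes whose highest value lay below 5.73 were left out, which kept 13651 of 19775. Differences were computed with Python 3.11.15, pandas 2.3.3 and numpy 2.4.6 and counted at 2-fold and 4-fold, with no test, and the procedure was tested on simulated data. Precision is limited by the number of arrays. Genes named were taken from 3 sources, and not every gene of these sources is named. They were the 40 with the largest difference in each direction whose probe sets shared a sign, the 25 in each direction with both HT29 readings past the filter, and members of the gene lists. ACTB and the markers were named as controls, and the genes placed in order on chromosome 7 (GRB10, STK17A, MACC1, COBL, OSBPL3, CYTH3, GUSB, ASL, PRSS3P2) were picked once their values had been seen. The genes, lists and rules were chosen with earlier results of these data known. Gene order came from RefSeq with no coordinates used. Alternatives were 2 other choices of probe set, 3 of filter and 3 of normalisation.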

Additional observations from a re-analysis of the deposited data

Results flagged for a closer look

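A difference of 2-fold or more in opposite directions between the lines drew attention to 13 of the genes described, and with 1 array a group none of these contrasts was tested. Higher in resistant HT29 and lower in resistant Colo205 were TIMP2 (2.90 and -3.23), FABP1 (2.30 and -2.17), SLC30A4 (1.97 and -1.55), CDA (1.74 and -1.26), PRSS3P2 (1.53 and -1.22), PRSS2 (1.46 and -1.72), DNAJC12 (1.32 and -4.37) and IL15 (1.07 and -1.82). Lower in resistant HT29 and higher in resistant Colo205 were PER3 (-2.30 and 1.02), IQGAP2 (-1.86 and 1.77), IFIT1 (-1.66 and 2.80), IFI44 (-1.65 and 1.54) and IFI27 (-1.24 and 3.40). Of the 32 genes with such opposite differences, 27 were higher in HT29 and 5 lower.

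Probe sets that name several genes or none were used in no comparison. Of 5191 of them past the filter, 95 were 2-fold or more higher and 101 lower in resistant HT29, or 1.83% and 1.95%.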

How the results depend on the processing

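The counts at 2-fold stayed within 1.5 times of 467 higher and 235 lower under every alternative run, from 377 to 503 higher and from 190 to 259 lower. With both HT29 readings required to reach the filter value, the counts at 4-fold changed from 91 to 57 higher and from 32 to 15 lower, since genes read on 1 array were left out. The median of the crypt and stem cell genes was -0.64 where the highest HT29 reading had to reach the filter, against -0.30, and that of the desmosome and squamous surface genes was 0.37 with no filter, against 0.78; fewer or more genes entered each. With the median over a gene's probe sets, ITGB4 reversed to -0.0044, and 34 of 200 named genes at 2-fold or more fell under 2-fold, as named in the results. Under that choice the differences of 52 of 225 named genes moved by more than the probe-set SD. Of the 467 higher genes 380 were shared under that choice, and 175 of the 235 lower ones. No paired analysis was possible because HT29 alone has 1 array a side; a fit over both lines with line as a block would ask a different question and was not run. Where 1 of the readings is under the filter, a difference has no exact size.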
